A study of Mus musculus with 9 samples.

Results

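The genes described here are Hmga1, Hmga2, Lin28a, Igf2bp1, Igf2bp2 and Igf2bp3, a group often called oncofetal because it is active in embryonic tissue, quiet in most adult tissue and active again in many tumours. Their probes were looked up by gene name on single-colour Agilent arrays of 9 mouse cell samples. Of the 6 genes, 5 had a probe, 1 each, among 15775 genes that could be named on the array. No probe was found for Lin28a, and it is not described further.

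The series set clones of induced pluripotent-like stem (iPS) cells beside embryonic stem (ES) cells and fibroblasts, with 1 array a sample. The 4 iPS clones were made from mouse embryonic fibroblasts (MEF) that carry a bgeo drug-selection cassette knocked into Fbx15, a gene active in ES cells. They were infected with retroviruses for 4 factors (1 clone), 10 factors (1 clone) or 3 factors (2 clones, here called clone 1 and clone 2), kept in ES cell conditions and selected with G418 for 16 days. The ES cells were Fbx15-null and were grown on STO feeder cells, which are fibroblasts. Unselected MEF carried the same Fbx15 bgeo knock-in and received retroviruses for 4 factors, but were not put under G418 and gave no iPS clone. The immortalised MEF line came from wild-type MEF that became immortal on their own and carries a further retroviral transgene. The NIH3T3 sample is the NIH3T3 fibroblast line transformed by a retrovirus for a constitutively active HRas mutant (HRasV12). MEF, the reference fibroblasts, came from Fbx15-null E13.5 embryos. Each iPS sample is 1 clone, so clone and number of factors cannot be told apart for the 4-factor and 10-factor samples. Nothing in the labels says whether the 2 clones of 3 factors came from separate infections. The p-values below therefore set a difference against the spread between these samples, not between independent infections. Against the single MEF or ES array, that spread is the spread of the clones alone. In RNA from whole cultures, fewer cells of a type and less RNA per cell cannot be told apart.

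HMGA proteins are small chromatin proteins whose AT-hooks bind the narrow groove of AT-rich DNA. HMGA2 is made in the embryo and in proliferating mesenchyme, and HMGA1 in most dividing embryonic cells. The IGF2BP proteins (also called IMPs) bind mRNAs, IGF2 and MYC mRNA among them, and affect their stability, transport and translation. LIN28A blocks the processing of let-7 microRNA precursors, and mature let-7 represses HMGA2, HMGA1 and IGF2BP mRNAs by pairing through its seed. This circuit is known for marking early embryonic cells, and it is the reason these genes are usually described together.

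The let-7 sequences are shown because the seed by which they pair is shared by nearly the whole family. Of 11 mouse let-7 and miR-98 mature entries in RefSeq (GRCm38.p6), 10 had the same bases 2 to 8, printed in capitals, and let-7j differed in the last of them. The arrays measured messenger RNA, and let-7 itself was not analysed here.
mmu-let-7a-5p: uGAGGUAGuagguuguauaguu
mmu-let-7g-5p: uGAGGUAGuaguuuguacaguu
mmu-let-7j: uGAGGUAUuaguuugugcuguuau

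Promoters are shown for the 2 HMGA genes, of which Hmga2 passed the test against MEF and Hmga1 did not. Any part of the promoters in that was not tested. The windows are the 250 bases before the gene start in RefSeq (GRCm38.p6), and 5 of the 6 genes have an entry. In the Hmga2 window, chr10:120476470-120476719 on the minus strand, the capitals mark CTCTCTCT, which was searched on both strands. It occurred 3 times here and at least once in 3.53% of 32841 promoter windows. In all, 5 motifs were searched and a different one is marked for each gene, so this rate says nothing particular of Hmga2.
Hmga2: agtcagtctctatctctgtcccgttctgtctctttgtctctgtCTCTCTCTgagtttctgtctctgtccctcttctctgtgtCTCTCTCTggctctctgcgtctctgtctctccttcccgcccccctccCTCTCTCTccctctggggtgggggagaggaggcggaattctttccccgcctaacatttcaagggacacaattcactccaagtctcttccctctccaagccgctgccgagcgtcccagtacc
In the first Hmga1 window, chr17:27556324-27556573 on the plus strand, the capitals mark GGGCGG, searched on both strands. It occurred 3 times here, with 2 of the matches side by side, and at least once in 32.7% of the windows.
Hmga1: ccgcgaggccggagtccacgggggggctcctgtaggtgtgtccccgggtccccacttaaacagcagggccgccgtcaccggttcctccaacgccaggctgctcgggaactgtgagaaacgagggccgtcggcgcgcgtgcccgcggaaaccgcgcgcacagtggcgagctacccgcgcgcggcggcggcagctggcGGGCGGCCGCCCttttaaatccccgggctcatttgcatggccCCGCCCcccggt
The Hmga1 window held no CTCTCTCT, and the Hmga2 window held GGGCGG 1 time. These are matches of letters, and binding at them was not measured.

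All levels below are log2 of the processed signal over the 75th percentile of its array, so 0 is the level of that percentile and a step of 1 is a factor of 2. All 5 probes were well above background on all 9 arrays, as were 8850 of all 20868 gene probes. On any 1 array the share well above background was 52.4% to 59.7%. Signals under the floor of measurement (-4.78 on the log2 scale) were set to it. Where a gene was at or near the floor on most arrays of 1 side, its difference is given as "at least", and its p-value rests on floored values, whose spread was not measured. Such a gene entered the test through its brighter side alone, so its call is not separate support for the difference. Where arrays of the other side were floored too, the floored samples are named instead. Levels are compared between samples, never between genes, because each probe has its own brightness. The arrays were read in 4 scans. Scan 1 held the 4-factor clone, the 10-factor clone, ES and MEF, scan 2 the clones of 3 factors, scan 3 the immortalised line and the NIH3T3 cells, and scan 4 the unselected MEF. Of 11 ES cell markers with a probe, 5 to 10 were well above background in the clones, 10 in ES and 1 to 3 in the fibroblast-derived samples. The selection gene Fbxo15 (Fbx15 in the labels) was -0.55 to 1.35 in the clones, 1.24 in ES and at the floor in all fibroblast-derived samples. The 3-factor clones had Sox2, Zfp42, Esrrb and Dppa4 at the floor. The summed level of 9 fibroblast markers was 3.54 to 4.65 in the clones, 4.02 in ES and 6.52 to 9.65 in the fibroblast-derived samples, so fibroblast transcripts were measured in the ES and iPS samples too. Their part in the results below was not tested.

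Hmga2 differed most between the samples, with a span of 43.2-fold from lowest to highest. In iPS cells its level was -2.28 with 4 factors, -1.61 with 10, and -2.13 and -1.90 in the 3-factor pair. ES had -2.56. Fibroblast-derived samples had -3.46 in the unselected MEF, 1.5 in the immortalised line, 1.97 in the NIH3T3 HRasV12 cells and 0.70 in MEF. Thus 3 fibroblast-derived samples were above all clones and ES, and the unselected MEF were below them all. The 4 clones lay within 1.58-fold of each other, and the clones, ES and the unselected MEF formed a low set with no overlap with the other 3 samples.

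Against MEF, the cell type the clones were made from, Hmga2 was the 1 member of 5 that passed the test. It averaged -1.98 ± 0.29 in the clones (SD, n = 4) and was 0.70 on the MEF array, a log2 difference of -2.68 ± 0.29 (SE), or 6.39-fold lower, with limma's adjusted p = 0.0184. All 4 clones were below MEF, an order whose share over all probes was not counted. Over all probes tested, 14.1% passed in this comparison, 4.73% as higher and 9.32% as lower. A count of 1 in 5 is near that share and says nothing particular of the group. The fit takes the single MEF array to vary as the clones do. Within scan 1 alone, where the 4-factor and 10-factor clones meet MEF, the difference was -2.64 (limma adjusted p = 0.216). The call was lost when 3-factor clone 1 or clone 2 was left out (limma adjusted p = 0.0801 and 0.0828), while the difference stayed at -2.63 and -2.70. With the spread pooled over all arrays, which takes in the fibroblast-derived samples, limma's adjusted p was 0.535.

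Against all 4 fibroblast-derived samples, Hmga2 averaged -1.98 ± 0.29 in the clones and 0.17 ± 2.48 in the fibroblast-derived samples (SD, n = 4 each). The log2 difference of -2.16 ± 1.09 (SE) did not pass the test (limma adjusted p = 0.254), and the groups overlapped through the unselected MEF alone. Without the unselected MEF the difference was -3.37 (limma adjusted p = 0.00289). With scan as a block it was -2.64 (limma adjusted p = 0.0414), and without the immortalised line and the NIH3T3 cells it was -0.60 (limma adjusted p = 0.721). In this comparison 8.93% of probes passed, 4.2% as higher and 4.73% as lower, and none of the 5 members did.

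Against ES, Hmga2 was 0.58 ± 0.29 (SE) higher in the clones on the log2 scale, a difference that did not pass the test (limma adjusted p = 0.289), with a 95% interval of -0.26 to 1.41. All 4 clones were above the ES array, and the share of all probes with that order was not counted. ES itself was 9.53-fold below MEF on single arrays, where 12% of probes differed at least 5-fold, 5.63% as lower. The unselected MEF were 17.9-fold below MEF, and only 1.41% of probes were at least 5-fold lower in that pair. No replicate stands behind these single-array differences, and their size depended on the processing. Over 6 alternatives the log2 difference from MEF ran from -3.643 to -1.885 for ES. For the unselected MEF it ran from -4.292 to -2.115.

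**Figure D1:**
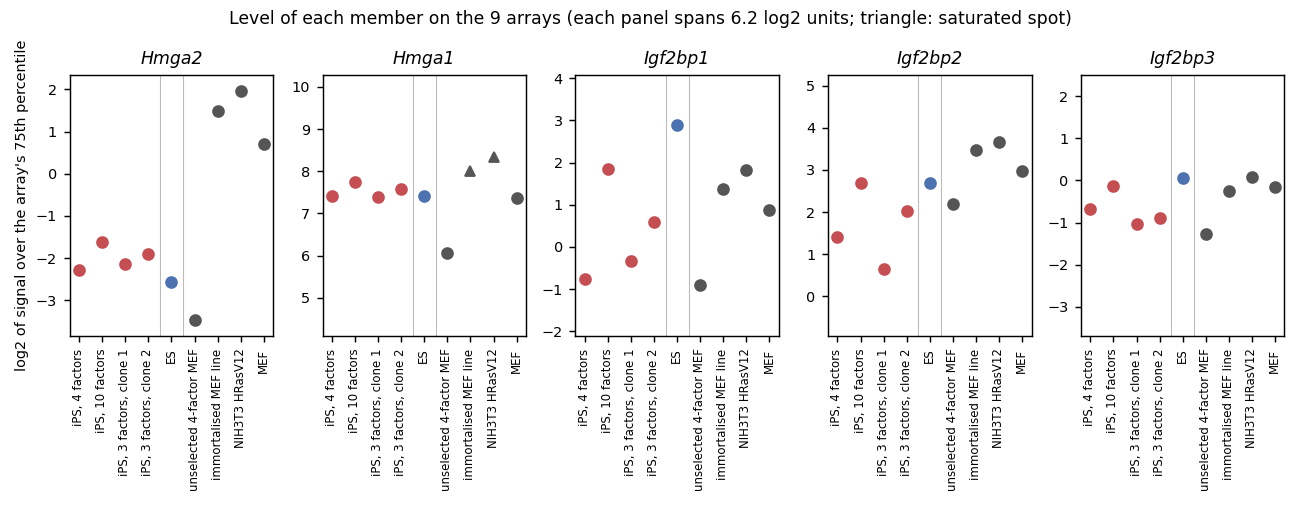
Level of the 5 genes on each of the 9 arrays, as log2 of the signal over the array's 75th percentile, with iPS clones in red, ES in blue and fibroblast-derived samples in grey; triangles mark saturated spots. Hmga2 separates 3 fibroblast-derived samples (0.70 to 1.97) from the other 6 arrays (-3.46 to -1.61), while the clones, ES and MEF lie close together for Hmga1.

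The array also held a probe described as Hmga2 pseudogene 1, at chromosome 1, 176767784 to 176767843 in the coordinates of the files. It was well above background in 3 samples only, at -2.03 in the immortalised line, -1.14 in the NIH3T3 HRasV12 cells and -2.78 in MEF. These are the 3 samples with high Hmga2. Against MEF the clones were at least 4.0-fold lower, a bound from the floor because no clone was well above background. Whether this probe and the Hmga2 probe read the same transcript was not tested.

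The other measured HMGA gene, Hmga1, did not separate clones from fibroblasts. In iPS cells its level was 7.42 with 4 factors, 7.74 with 10, and 7.39 and 7.58 in the 3-factor pair. ES had 7.41. Fibroblast-derived samples had 6.06 in the unselected MEF, 8.0 in the immortalised line, 8.33 in the NIH3T3 cells and 7.37 in MEF. The spots of the immortalised line and the NIH3T3 cells were saturated. The 4 clones lay within 1.27-fold of each other, with ES inside their range and MEF just under it.

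The clones averaged 7.54 ± 0.16 for Hmga1 (SD, n = 4), and the log2 difference was 0.16 ± 0.17 (SE) against MEF (limma adjusted p = 0.571), with a 95% interval of -0.33 to 0.66. It was 0.13 ± 0.17 against ES (limma adjusted p = 0.678), with an interval of -0.36 to 0.62. Both intervals rest on the spread of the clones and take the single MEF or ES array to vary as they do. The SD of Hmga1 over the fibroblast-derived samples was 1, so the intervals do not bound the difference between cell types. Hmga1 was at least 1.94-fold higher in the NIH3T3 cells than in MEF and at least 1.54-fold higher in the immortalised line, both bounds because of saturation. The unselected MEF were 2.48-fold below MEF.

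Igf2bp1, which in mouse is mainly an embryonic gene, had its highest level in ES and spread widely over the clones. In iPS cells its level was -0.76 with 4 factors, 1.84 with 10, and -0.34 and 0.59 in the 3-factor pair. ES had 2.89. Fibroblast-derived samples had -0.91 in the unselected MEF, 1.37 in the immortalised line, 1.83 in the NIH3T3 cells and 0.87 in MEF. Every clone was below ES, but the clones lay on both sides of MEF.

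The clones averaged 0.33 for Igf2bp1, a log2 difference of -2.56 ± 1.15 (SE) against ES, or 5.89-fold lower, which did not pass the test (limma adjusted p = 0.240). The 95% interval ran from -5.82 to 0.70. In this comparison 13.5% of probes passed, 4.06% as higher and 9.43% as lower, and none of the 5 members did. Against MEF the difference was -0.54 ± 1.14 (limma adjusted p = 0.766). The 10-factor clone was 6.06-fold above the 4-factor clone, where 3.14% of probes differed at least 5-fold and 1.84% were higher. ES was 4.05-fold above MEF.

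Igf2bp2 is named here through RefSeq because the files call it by a clone name. Igf2bp2 was lower in every clone than on the MEF array, an order whose share over all probes was not counted. In iPS cells its level was 1.41 with 4 factors, 2.69 with 10, and 0.66 and 2.02 in the 3-factor pair. ES had 2.70. Fibroblast-derived samples had 2.20 in the unselected MEF, 3.46 in the immortalised line, 3.67 in the NIH3T3 cells and 2.98 in MEF. The clones and the fibroblast-derived samples overlapped only where the 10-factor clone exceeded the unselected MEF.

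The clones averaged 1.69 and the fibroblast-derived samples 3.08 for Igf2bp2, a log2 difference of -1.39 ± 0.49 (SE), or 2.61-fold lower. It did not pass the test over all probes (limma adjusted p = 0.124, and 0.0227 before adjustment). Within scan 1 the difference from MEF was -0.93 (limma adjusted p = 0.605). Over 4 clones against MEF it was -1.29 ± 0.86 (limma adjusted p = 0.380), and against ES -1.01 ± 0.87 (limma adjusted p = 0.516).

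Igf2bp3 varied least, with a span of 2.55-fold over the 9 arrays. In iPS cells its level was -0.68 with 4 factors, -0.13 with 10, and -1.04 and -0.90 in the 3-factor pair. ES had 0.06. Fibroblast-derived samples had -1.27 in the unselected MEF, -0.25 in the immortalised line, 0.09 in the NIH3T3 cells and -0.16 in MEF. Every clone was below ES, the 10-factor clone by the least.

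The clones averaged -0.69 for Igf2bp3, a log2 difference of -0.75 ± 0.40 (SE) against ES (limma adjusted p = 0.311) and of -0.53 ± 0.40 against MEF (limma adjusted p = 0.436). Against all fibroblast-derived samples it was -0.29 ± 0.35 (limma adjusted p = 0.617). None of these passed the test. For Igf2bp2 every clone was also below ES, the 10-factor clone by only 0.0085. The share of all probes with every clone on the same side of the single ES or MEF array was not counted. Such an order by itself says nothing particular of these genes.

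**Figure D2:**
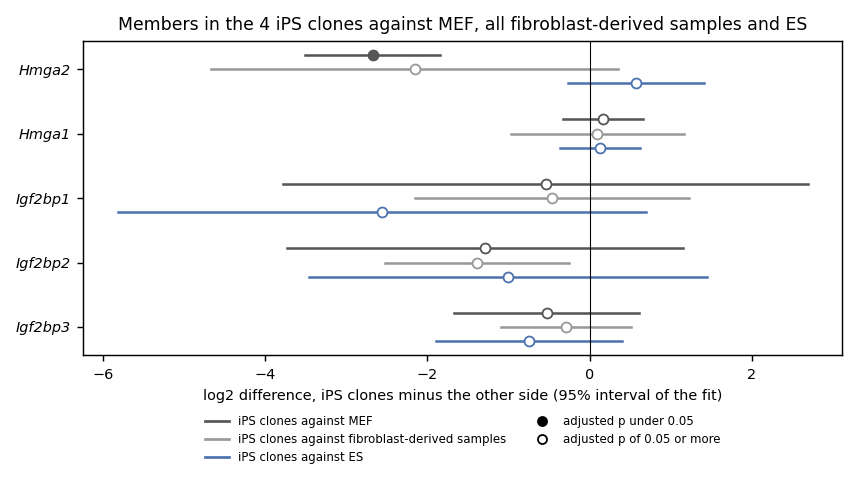
Log2 difference of the 4 iPS clones from MEF, from all fibroblast-derived samples and from ES for each gene, with the 95% interval of the limma fit; filled points have an adjusted p under 0.05. The interval of Hmga2 against MEF (-3.51 to -1.84) belongs to the only filled point, and Igf2bp1 has the widest intervals against MEF and against ES.

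Among the 5 genes, the clones differed most from each other in Igf2bp1 and Igf2bp2. From lowest to highest clone the span was 6.06-fold for Igf2bp1 and 4.10-fold for Igf2bp2, against 1.88-fold for Igf2bp3, 1.58-fold for Hmga2 and 1.27-fold for Hmga1. The 10-factor clone was the highest of the 4 for all 5 genes. It was also the highest clone for 25.5% of the 8850 probes that were well above background on all arrays, and it had the highest summed fibroblast markers of the clones (4.65). The part of those transcripts in its levels was not tested.

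The 3-factor clones, scanned together, were alike over most of the array. The middle 95% of 11453 probes differed by less than 0.67 on the log2 scale between them. Igf2bp2 was 2.57-fold higher in clone 2 than in clone 1, and 0.699% of probes differed at least as much. Igf2bp1 was 1.90-fold higher in clone 2, and 1.98% of probes differed at least as much. Hmga1, Hmga2 and Igf2bp3 differed by 0.19, 0.23 and 0.14, inside the usual spread of this pair.

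Set against the 4- and 10-factor clones, the 3-factor clones did not differ in any member by the test, where 0.0148% of 13554 probes passed by limma, that is 2 probes, and 3073 had an unadjusted p under 0.05. Igf2bp3 came nearest, with -0.97 in the 3-factor and -0.41 in the 4- and 10-factor clones on average, a log2 difference of -0.56 ± 0.25 (SE, limma adjusted p = 0.317). It was the only member whose groups did not overlap, and 25.6% of the probes above background on all arrays likewise had both 3-factor clones below both others. Scan and number of factors cannot be told apart here.

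**Figure D3:**
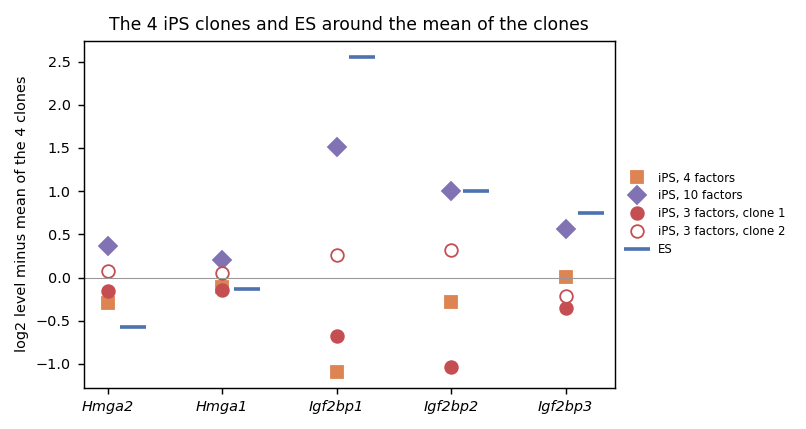
Level of each gene in the 4 iPS clones, with ES as a blue bar, relative to the mean of the clones on the log2 scale. The 10-factor clone is the top clone for all 5 genes, the 2 clones of 3 factors separate for Igf2bp1 and Igf2bp2, and ES lies above the clones for Igf2bp1 and below them for Hmga2.

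The unselected MEF had the lowest level of the 9 arrays for 4 of the 5 genes, all but Igf2bp2. The same array was the lowest for 23.8% of the probes above background on all arrays. Relative to MEF they were 17.9-fold lower for Hmga2, 3.44-fold for Igf2bp1, 2.48-fold for Hmga1, 2.15-fold for Igf2bp3 and 1.72-fold for Igf2bp2. Their summed fibroblast markers were 9.65, beside 9.47 in MEF. Of 7 macrophage markers, 5 were well above background in the unselected MEF, against 3 in MEF, and the summed level was 2.72 in the unselected MEF, -0.78 in MEF and -1.96 to -0.53 in the other samples. Itgam and Ptprc were below background on every array. The part of macrophage transcripts in the low levels was not tested, and scan 4 holds only this array, so scan and sample cannot be told apart.

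The NIH3T3 HRasV12 cells were the highest of the 9 arrays for 3 of the 4 genes with no saturated spot, as they were for 18.1% of 8799 such probes above background on all arrays. Hmga1 was saturated there and in the immortalised line, so which of them was higher cannot be read. Igf2bp1 was higher elsewhere, in ES and, by 0.0047, in the 10-factor clone. Relative to MEF, Hmga2 was 2.42-fold higher in the NIH3T3 cells and 1.74-fold higher in the immortalised line. Igf2bp1 was 1.95-fold and 1.41-fold higher in the same samples, and Igf2bp2 1.62-fold and 1.4-fold. Igf2bp3 was 1.19-fold higher in the NIH3T3 cells but 1.06-fold lower in the immortalised line. None of these reached 5-fold, by which 1.62% of probes were higher in the NIH3T3 cells and 1.32% in the immortalised line.

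Across the 9 arrays Igf2bp1 and Igf2bp3 were the most alike pair of members (Pearson r = 0.88), and Hmga2 and Igf2bp1 the least (r = 0.41). These are descriptions over arrays that differ in scan and cell type. By the same measure, the genes closest to Hmga2 among 4877 well-measured, variable genes were Prkg2 (r = 0.97), Specc1 (0.96) and Mthfsd (0.95). Those closest to Hmga1 were Rbm14 (0.97), Mafg (0.96) and Arhgap11a (0.96). For Igf2bp1 they were Bcl2l11 (0.94), Klf4 (0.90) and Zfp280b (0.89), and for Igf2bp2 Cand2 (0.92), Slc36a1 (0.91) and Lrp8 (0.90). Zfp280b (0.93) and Ccdc88a (0.92) were among the closest to Igf2bp3, so Zfp280b was on both the Igf2bp1 and the Igf2bp3 list.

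Among the genes that make or modify let-7, 14 of 20 listed were tested, and Lin28b had no probe found. Against the fibroblast-derived samples, 1 of 14 rose in the clones and none fell, beside 4.2% and 4.73% of all probes, with a list median of -0.01 beside 0.02 over all probes. A share this near that of all probes says nothing particular of the list. The gene that rose was Dis3l2, the exonuclease that degrades let-7 precursors tailed after LIN28 binding. Dis3l2 had -1.50 to -0.62 in the clones, -2.02 in ES and -3.44 to -1.92 in the fibroblast-derived samples, with no overlap between clones and fibroblasts, and was 1.79 ± 0.35 (SE) higher in the clones (limma adjusted p = 0.0213). That call held in 13 of 21 alternatives. It was lost with scan as a block (2.38, limma adjusted p = 0.0932), within scan 1 (limma adjusted p = 0.245) and with the 3-factor clones averaged (limma adjusted p = 0.0725). It was also lost without the 4-factor clone or either 3-factor clone (limma adjusted p = 0.0558 to 0.0749, differences of 1.68 to 1.78) and with arrays scaled to their median (1.46, limma adjusted p = 0.136). Against MEF, Dis3l2 rose by 2.49 (limma adjusted p = 0.0351) and Hnrnpa1, an RNA-binding protein that can act on let-7 precursors, by 1.29 (limma adjusted p = 0.0445). Against ES, Syncrip rose by 1.33, and Tarbp2, a partner of Dicer, fell by 0.88 (limma adjusted p = 0.0368 and 0.0299). Ago1, an Argonaute protein, fell by 1.21 against ES (limma adjusted p = 0.0470). Trim25, an RNA-binding ubiquitin ligase, had the next largest difference from the fibroblast-derived samples, -1.17, without passing (limma adjusted p = 0.226).

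Of reported let-7 targets other than the members, 14 of 25 were tested against the fibroblast-derived samples. None passed limma's test, beside 8.93% of all probes, and the median was 0.06 beside 0.02 over all probes. The largest differences there were -1.77 for Slc25a24, 1.70 for E2f2, at least 1.22 for Arid3b and 1.11 for Gatm. Their limma adjusted p ran from 0.102 to 0.411. Gatm was at the floor in the 4-factor clone and in all fibroblast-derived samples but the unselected MEF. Without the unselected MEF, Slc25a24 differed by -2.37 (limma adjusted p = 0.00634), and without the immortalised line E2f2 differed by 2.33 (limma adjusted p = 0.0254). With all fibroblast-derived samples kept, 3360 of 12949 probes had an unadjusted p under 0.05 by limma. Against MEF, 15 were tested. E2f2, a cell-cycle transcription factor, rose by 2.99 (limma adjusted p = 0.0462). Slc25a24, a mitochondrial carrier, fell by 1.69 (limma adjusted p = 0.00867). Plagl1, an imprinted zinc-finger gene, was at least 2.96-fold lower, with no clone well above background. The list therefore held 1 rise and 2 falls against MEF by the test, 1 of the falls against floored clones. Against ES, 2 rose, Ccnd1 (cyclin D1) by 0.95 and Slc25a24 by 1.09 (limma adjusted p = 0.0388 and 0.0187). Mycn also passed as lower, with a mean of -4.75 in the clones, 1 of 4 well above background, and -2.75 in ES.

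The insulin-like growth factor genes, which include the transcript that gave the IGF2BP proteins their name, included 4 that were lower in the clones than in MEF. Of 10 tested, 4 fell and none rose, beside 9.32% of all probes that fell and 4.73% that rose, with a median of -1.78 beside 0.04 over all probes. Igfbp7, a secreted binding protein, fell by 5.26 (limma adjusted p = 0.0121), the growth factor Igf1, well above background in 1 of 4 clones, by at least 3.76 (limma adjusted p = 0.00494), the binding protein Igfbp6 by 1.85 (limma adjusted p = 0.0354) and the receptor Igf2r by 1.72 (limma adjusted p = 0.0378). The 10 include Nckap1 (-0.25), because the listed name H19 was matched to it as a synonym. Nckap1 is not an insulin-like growth factor gene, and no probe was named H19. All counts and medians given for this list include Nckap1. Igf2 itself was -0.49 with 4 factors and 0.32 with 10 factors, and at the floor in both 3-factor clones. It was 0.88 in ES, 5.93 in the unselected MEF, at the floor in the immortalised line and the NIH3T3 cells, and 6.70 in MEF. With this spread Igf2 did not pass against MEF (limma adjusted p = 0.111). Against the fibroblast-derived samples, 1 of 10 fell, beside 4.73% of all probes, and the median was -1.28. It was Igfbp6, by 2.71 (limma adjusted p = 0.00939), a call that held in 19 of 21 alternatives. The call was lost with scan as a block (-1.71, limma adjusted p = 0.171) and within scan 1 (-1.71). Igfbp2, another binding protein, averaged 1.06 in the clones and -1.19 in the fibroblast-derived samples without passing (limma adjusted p = 0.546). Against ES none of 9 passed limma's test, beside 13.5% of all probes. Before adjustment, 4079 of 13212 probes had p under 0.05 by limma in that comparison. Several of these genes are strong in fibroblasts, whose summed markers were also lower in the clones (3.54 to 4.65) than in MEF (9.47), and the part of that was not tested.

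The 10 genes tested against the fibroblast-derived samples from the list of other oncofetal genes include Nckap1 (-0.42). It was again matched to the listed name H19 and is not itself a listed gene. Of the 10, 2 rose and none fell, beside 4.2% of all probes that rose. They were Epcam, an epithelial adhesion gene, by at least 5.31 (limma adjusted p = 0.0244) and Tert, the catalytic subunit of telomerase, by at least 1.73 (limma adjusted p = 0.00843), each well above background in 4 of 4 clones and 1 of 4 fibroblast-derived samples. Both entered the test through the clones alone, and their p-values rest on floored values. Epcam was 2.72 and 3.38 in the 4- and 10-factor clones and -0.27 and -0.21 in the 3-factor clones, beside -4.78 to -1.52 in the fibroblast-derived samples. Its call held in 13 of 21 alternatives. It was lost without the 4-factor clone, the 10-factor clone, the NIH3T3 cells or MEF (limma adjusted p = 0.0521 to 0.0598) and with normexp background correction, where the difference was 2.88 (limma adjusted p = 0.0906). The Epcam call was also lost within scan 1 and with no filter (limma adjusted p = 0.0814). Without both the immortalised line and the NIH3T3 cells it was lost too (limma adjusted p = 0.0868). Tert was -3.51 to -2.48 in the clones and at the floor in all fibroblast-derived samples. The Tert call held in 19 of 21 alternatives. It was lost within scan 1 and with normexp background correction. With normexp the difference was 0.16 (limma adjusted p = 0.212). None of the 10 passed limma's test against MEF or against ES, beside 14.1% and 13.5% of all probes.

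Among 13 other genes with a high mobility group box or HMG name, 2 rose and none fell against the fibroblast-derived samples, beside the same 4.2% of all probes. Tox3, well above background in 4 of 4 clones and 1 of 4 fibroblast-derived samples, rose by at least 5.29 (limma adjusted p = 0.00584), and Hmgxb4 by 2.37 ± 0.26 (limma adjusted p = 0.00333). Tox3 entered the test through the clones alone, and its p-value rests on floored values. Hmgn5, a nucleosome-binding gene, was 1.16 higher without passing (limma adjusted p = 0.144). Against MEF, Hmgxb4 rose by 2.44 (limma adjusted p = 0.0323), and Tox, which no clone measured above background, was at least 9.17-fold lower, which also passed, on floored values. Against ES, Hmgb1, the abundant DNA-bending protein, rose by 1.15 (limma adjusted p = 0.0345). The list of other single-stranded RNA-binding genes of the KH and cold shock kind holds structural relatives of the IGF2BP and LIN28 proteins. Of 19 tested, none passed limma's test against the fibroblast-derived samples or against MEF. Over all probes, 8.93% and 14.1% passed in these comparisons. Before adjustment, 4356 of 13051 probes had p under 0.05 by limma against MEF. Not all genes of this list are of that kind, as Elavl1, Elavl2 and Cirbp have neither a KH nor a cold shock domain. The largest differences from the fibroblast-derived samples were -1.72 for Pcbp3, -0.95 for Fxr2, 0.77 for Elavl2 and -0.72 for Carhsp1. Their limma adjusted p ran from 0.109 to 0.303. Elavl2 was at the floor in all fibroblast-derived samples and in the 4- and 10-factor clones. In this list 1 passed against ES, Carhsp1, higher by 0.88 (limma adjusted p = 0.0226). Between the 3-factor clones and the 4- and 10-factor clones, no gene of any of the 6 lists passed limma's test.

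**Figure D4:**
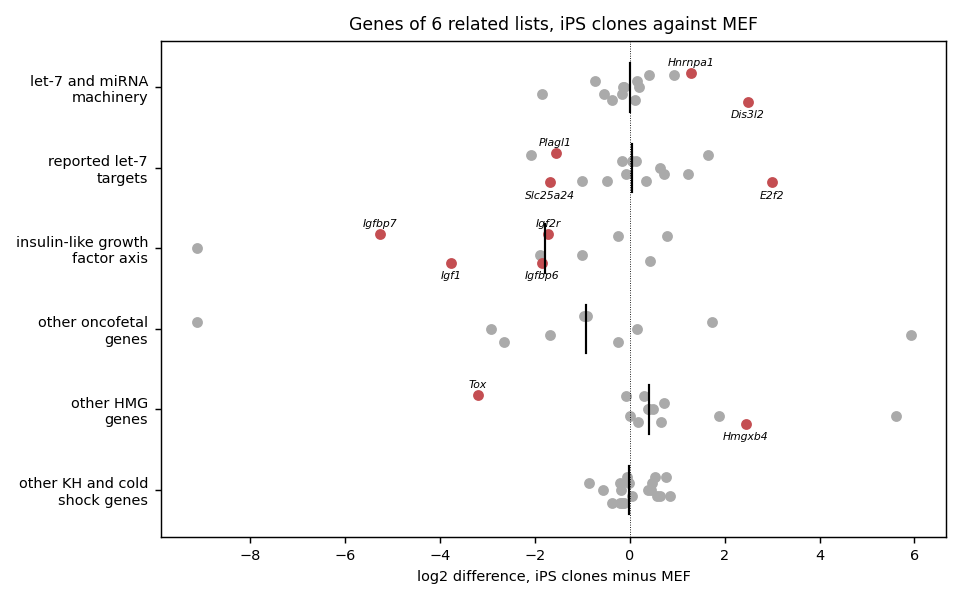
Log2 difference of the 4 iPS clones from MEF for the tested genes of 6 related lists, with red points for an adjusted p under 0.05 and a black bar at each list's median. Nckap1, matched to the listed name H19, is counted in the insulin-like growth factor and the other oncofetal lists. The insulin-like growth factor list has 4 red points, all below 0, and a median of -1.78, while the KH and cold shock list lies around 0 with no red point.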

How the data were processed

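RNA of 9 mouse samples was hybridised once each in 1 colour. Per the file headers, the authors' program was Agilent Feature Extraction 8.5.1.1. Its deposited processed signal is a linear intensity after background subtraction. The deposited value table held the same intensity within 0.5% for all compared probes, on a linear scale without centring, with column medians of 8.97 to 19.6. No column of other samples was present.

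Controls and spots marked as outliers (0 to 9 an array) were left out, repeated spots averaged, and arrays scaled to their 75th percentile (signals of 167 to 300). A floor at 3.63% of it preceded log2. The log2 values were computed here from the deposited signals. Precision is limited by the number of arrays. Probes were named through RefSeq accessions, clone names or symbols (16541 of 20868). The probes lie at chromosome 10, 119940312 to 119940371 (Hmga2), chromosome 17, 25359517 to 25359576 (Hmga1), chromosome 11, 95784300 to 95784359 (Igf2bp1), chromosome 16, 20832360 to 20832419 (Igf2bp2) and chromosome 6, 49221288 to 49221895 (Igf2bp3) in the files, all but Hmga1 on the minus strand. Which genome build these positions refer to is not stated in those files, so no exon is assigned.

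Probes that exceeded background clearly in at least 50% of arrays in 1 of the groups being compared were tested with limma 3.58.1 (R 4.3.3), two-sided, Benjamini-Hochberg adjusted over all probes, threshold 0.05, on simulated data first. Single arrays were compared by fold, with 5-fold as the limit. Alternatives covered background, scaling, floor, filter, scan and left-out arrays. The members and lists were chosen with earlier results of these data known. Text names all members, per list up to 4 genes (those that passed, then the largest differences from the fibroblast-derived samples) and per member up to 3 of the closest patterns by r. List genes outside this rule were chosen after their values were seen. The transgene of the immortalised line and 1 of the closest patterns are not reported here.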

Additional observations from a re-analysis of the deposited data

How the results depend on the processing

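The Hmga2 difference from MEF kept its direction in all 16 alternatives (-2.80 to -1.77) and passed in 10 of them; scan as a block gave -2.64 (limma adjusted p = 0.0507) and the 3-factor clones averaged as 1 sample -2.66 (limma adjusted p = 0.0798). Against the fibroblast-derived samples it passed in 3 of 21. Scaling to the median moved the median of all probes to -0.27 in that comparison. The cause of each change was not tested.

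The number of probes passing against the fibroblast-derived samples (1156) was 642 with no filter, 443 with the 3-factor clones averaged, 740 with scan as a block, 0 within the shared scan and 2011 without the immortalised line and the NIH3T3 cells, and 413 to 1592 with 1 array left out. Against MEF (1834) it was 1076 with a lower floor, 348 with the 3-factor clones averaged, 0 within the shared scan, 204 with pooled spread, and 318 to 1896 with 1 array left out. Against ES (1783) it was 1013 with median scaling, 739 with the lower floor, 505 with the 3-factor clones averaged, 0 within the shared scan, 878 with pooled spread, and 475 to 2083 with 1 array left out. Unadjusted, 2990, 2990 and 2920 probes had p under 0.05 within the shared scan by limma. Between clones of 3 and of 4 or 10 factors (2) it was 0 with normexp, median scaling or the lower floor, 7 with quantile normalization, 40 with no filter, and 0 to 0 with 1 array left out, where 1183 to 4506 probes had an unadjusted p under 0.05 by limma. Single-array counts at 5-fold with normexp were 432 for ES against MEF, 111 for unselected against plain MEF, 241 for NIH3T3, 284 for the immortalised line, 429 for the 4-factor clone against unselected MEF and 86 for the 10-factor against the 4-factor clone; with the lower floor the last 5 were 1159, 1623, 1825, 2335 and 822.

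Signs turned only for differences that had not passed. Against the fibroblast-derived samples Hmga1 was -0.24 with median scaling and -0.36 without the unselected MEF (-0.36 to 0.39 with 1 array left out), and without the immortalised line and NIH3T3 Igf2bp1 was 0.35, Igf2bp3 0.026, Igfbp2 -1.34 and Mdk -0.90. Between 3-factor and other clones Hmga1 was 0.20 with median scaling, 0.0008 without 3-factor clone 1 and 0.065 without the 10-factor clone (-0.25 to 0.065 over left-out arrays). Hmga2 was 0.052 with quantile normalization, 0.23 with median scaling, 0.044 without 3-factor clone 1 and 0.26 without the 10-factor clone (-0.40 to 0.26 over left-out arrays), and Igf2bp1 was 0.05 and 0.89 without the same clones (-1.71 to 0.89). No member had several probes, so that alternative was not run. No paired analysis was possible because the groups share fewer than 2 replicate numbers.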

Other observations

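Mdk, the heparin-binding growth factor midkine, differed strongly between the 3-factor clones and was singled out after its values were seen. It was 2.53 in clone 2 and -1.97 in clone 1, a 22.7-fold difference. It reached 2.02 with 4 factors, 3.47 with 10 factors and 3.91 in ES. Unselected MEF and MEF both had 2.41, and it was at the floor in the immortalised line and the NIH3T3 cells.

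Tox3 was higher in all 4 clones (-0.92 to 2.10) than in ES (-3.14), with the 3-factor clones at 1.96 and 2.10 and the 4- and 10-factor clones at -0.92 and 0.21. Arid3b, a DNA-binding gene and reported let-7 target, was -1.27 in the 10-factor clone and -0.56 in ES, and at or near the floor, -4.55 to -3.99, in the other clones.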
